A study of Mus musculus with 14 samples.

Results

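Valproic acid (VPA) is an inhibitor of histone deacetylases, the enzymes that remove acetyl groups from histones. The comparison described here follows mouse hepatic stellate cells (HSCs) that were kept with the inhibitor from 2 h after seeding. It sets the 3 arrays of VPA-treated cells at 64 h (VPA64h) against the 3 arrays of VPA-treated cells at 4 h (VPA4h), 6 of the 14 arrays of the series. The arrays were chosen by their titles alone, and every gene named by exactly 1 symbol was used, 19938 genes in all. The cells came from livers of BalbC mice (Balb/cByJ in the methods of the study) and grew in medium with serum. Cells that had not attached were washed off 2 h after seeding, 2.5 mM VPA was added at that moment to the treated cultures, and time was counted from there. The 3 arrays of untreated cells at 4 h (Ctrl4h) and the 3 at 64 h (Ctrl64h) served to show what the same interval of culture did without the inhibitor, and 2 arrays of untreated cells at 16 h (Ctrl16h) entered the estimate of the spread. All groups were therefore primary cells on culture dishes, and none was a liver sample or a freshly isolated cell. Treatment began at the wash, so cells of VPA4h had already been exposed for 4 h.

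HSCs are the vitamin A storing pericytes of the liver sinusoid. In an injured liver, or when plated on plastic, they lose the genes of the resting cell and become myofibroblasts, which hold contractile filaments, secrete and cross-link collagen, divide, and exchange growth factors and chemokines with other cells. The comparison asks which of these parts of activation went on with VPA present.

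Values are log2 expression levels after robust multi-array averaging (RMA), so a change of 1 is a 2-fold change. Changes were tested with limma across all arrays and are given as log2 differences with their standard error (SE). A gene was called when its Benjamini-Hochberg adjusted p was under 0.05 and its change was at least 2-fold, and "rose" and "fell" are used for called genes only. The sources describe the samples of a group as independent replicates. Arrays of a group correlated with each other at r = 0.993 to 0.995 over all probe sets tested, and VPA4h arrays with VPA64h arrays at 0.956 to 0.961. The mean level over 14 stellate cell identity markers, which include desmin, reelin and Lrat, was 9.97 to 10.09 on the VPA4h arrays and 9.43 to 9.56 on the VPA64h arrays. The mean level over the marker lists of 5 other cell types lay between 4.85 and 6.97 on all of these arrays. Of 17 hepatocyte markers only albumin was called, with a change of -1.08 that lost its call under 6 of 14 alternative settings. None of 18 Kupffer cell markers was called, and of 14 lymphocyte markers the chemokine Ccl5 alone was (-2.21). Of 18 sinusoidal endothelial markers Bmp2 and Plvap fell, and the mean level of this list was 6.71 to 6.97 on the VPA4h arrays and 6.30 to 6.31 on the VPA64h arrays. Bmp2 and Plvap lay far above that mean, at 10.55 and 12.01 at VPA4h and 8.88 and 9.97 at VPA64h. At an adjusted p under 0.05 alone 10 of the 18 had a negative change and 1 a positive one. The part of other cells in any change below was not tested. In such bulk samples, fewer cells of a kind and less RNA per cell cannot be told apart.

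With VPA present 1145 genes rose between 4 h and 64 h, 5.74% of all genes, and 289 fell, 1.45%. The counts of the gene lists below stand beside these shares. In control culture 1414 genes rose (7.09%) and 452 fell (2.27%) over the same interval. The changes of the control list were thus measured on control arrays alone, while the VPA arrays entered the shared estimate of the spread behind its calls. With the compared groups alone in the fit, the control culture had 1414 rises and 451 falls. Of the 1414 control-culture rises 711 also rose with VPA, which is 50.3% of them and 62.1% of the 1145 VPA rises. The sign of the change was kept by 1356 of the 1414 (95.9%). Their median log2 change was 1.00 with VPA (quartiles 0.62 and 1.41) and 1.36 in control culture, where they had been selected for being large. Of the 452 control-culture falls 191 (42.3%) also fell with VPA, 441 kept their sign, and the median change was -0.92 with VPA against -1.28 without. The median over all genes was -0.08 in both cultures. Across the 19938 genes the changes of both cultures, which share no array, correlated at r = 0.79, a description across genes that are not independent of each other.

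**Figure D1:**
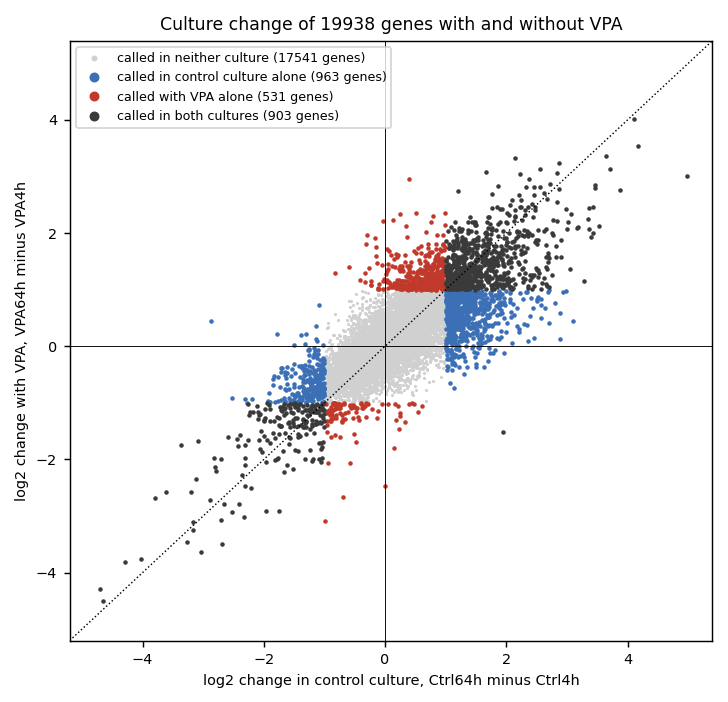
Each point is 1 of 19938 genes, with its log2 change in control culture (Ctrl64h minus Ctrl4h) on the horizontal axis and with VPA (VPA64h minus VPA4h) on the vertical axis, and the dotted line marks equal changes. 903 genes were called in both cultures, 963 were called in control culture alone, and the single dark point below zero on the right is Igfbp3.

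The difference between the culture changes was tested directly, as the change with VPA minus the change without. It was called for 521 genes (2.61%), with a higher change in the VPA culture for 167 (0.838%) and a lower one for 354 (1.78%). At an adjusted p under 0.05 alone the difference was positive for 1527 of all genes and negative for 1745. A difference that was not called can therefore still be a change under 2-fold. Among the 711 shared rises, the difference was not called for 654, was a smaller rise with VPA for 52 and a larger one for 5. Of the 702 control-culture rises that were not called with VPA, 216 had a called smaller change and 486 had not, so for the latter the test does not tell a reduced rise from a rise that just missed the limits. A single gene, Igfbp3, rose in control culture and fell with VPA. Since control arrays both chose these genes and enter the difference, smaller changes with VPA are favoured in these counts. A called difference also says nothing of where a gene started, and for several genes below the VPA4h level already lay away from the Ctrl4h level.

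The contractile programme went on in part. Of 16 smooth muscle contractile genes 4 rose with VPA and 1 fell, while 9 rose and 1 fell in control culture. Acta2 encodes smooth muscle alpha-actin, the standard marker of the activated HSC. Its level was 9.31, 9.02 and 9.43 on the VPA4h arrays and 11.75, 11.98 and 11.68 on the VPA64h arrays. All VPA64h arrays lay above all VPA4h arrays, and the rise was 2.55 (SE 0.13, limma adjusted p = 3.93e-10), a 5.86-fold change. In control culture Acta2 rose by 2.83, and the difference of -0.28 was not called (95% interval -0.66 to 0.11). The gene rose from a lower start and ended lower, however: the means were 9.25 ± 0.21 at VPA4h and 11.80 ± 0.16 at VPA64h (SD, n = 3), against 10.14 ± 0.18 at Ctrl4h and 12.97 ± 0.02 at Ctrl64h. The VPA64h level lay close to the 11.76 of the Ctrl16h arrays.

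The other contractile genes that rose with VPA were Myl9, a regulatory light chain of smooth muscle myosin (2.08, SE 0.17), Tpm2, a tropomyosin of the actin filament (2.01, SE 0.12), and Cnn1, the calponin that binds actin and slows myosin (1.44). Their control changes were 2.66, 2.76 and 1.49. The difference was -0.58 for Myl9 (limma adjusted p = 0.125) and -0.75 for Tpm2 (limma adjusted p = 0.00743, under 2-fold). Myh11, the smooth muscle myosin heavy chain, had no called change. Its level was 7.10, 7.04 and 7.78 on the VPA4h arrays and 7.54, 7.35 and 7.21 on the VPA64h arrays, a change of 0.06 with overlapping arrays, where control culture had a rise of 2.1. The difference was -2.04 (SE 0.23, adjusted p = 2.56e-05). Actg2, the gamma-actin of enteric smooth muscle, had a change of 0.15 against a control rise of 2.46, and Mylk, the kinase that phosphorylates the myosin light chain, one of -0.17 against 1.12. Desmin, the intermediate filament protein of muscle and HSCs, changed by 0.79 (adjusted p = 7.96e-07, under 2-fold) against 1.96. The called smaller changes of this list were those of Myh11, Actg2, Mylk and Des, 4 of 16 genes, where 1.78% of all genes had one. Srf, the transcription factor that binds CArG boxes in front of many contractile genes, fell by 1.12 with VPA and had a called change of -1.0 without, and Smtn, the cytoskeletal protein smoothelin, fell by 1.23 with VPA and had a control change of -1.04.

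**Figure D2:**
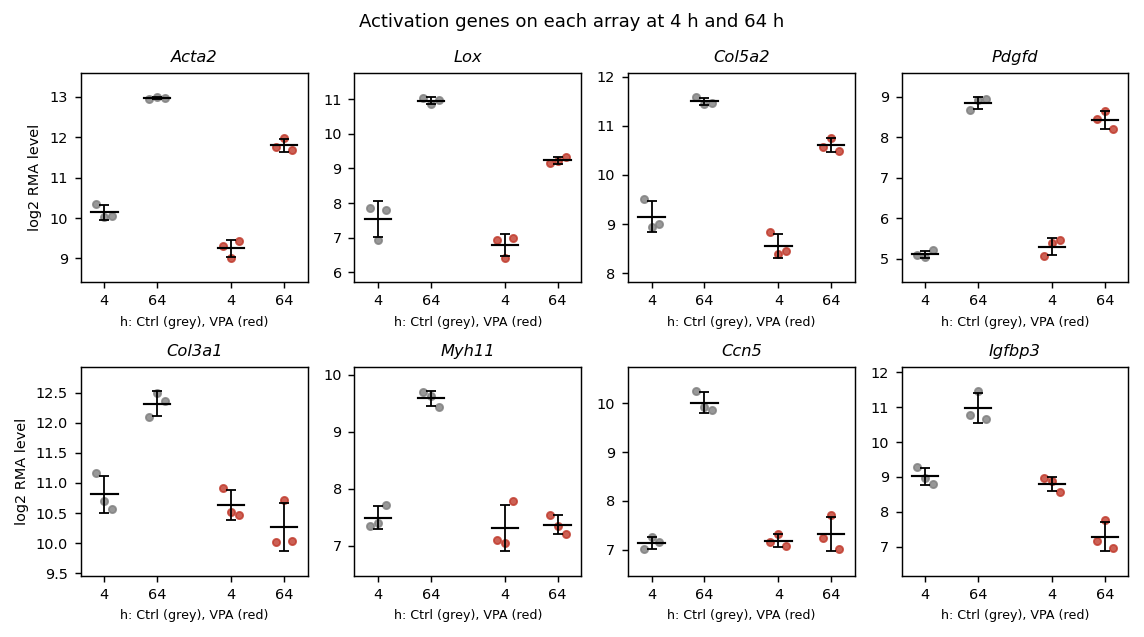
Log2 RMA levels of 8 activation genes on each array (points) at 4 h and 64 h in control culture (grey) and with VPA (red), with the mean and SD of 3 arrays as black lines. In the upper row Acta2, Lox, Col5a2 and Pdgfd rose in both cultures, and in the lower row Col3a1, Myh11 and Ccn5 stayed near their 4 h level with VPA while Igfbp3 fell.

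The CArG box was written as CCWWWWWWGG, where W is A or T, with no mismatch allowed. It was looked for in the 250 bases before the start of each gene, on both strands, in promoter sequences from RefSeq (GRCm38.p6). Boxes with a mismatch or outside these bases are not counted. It was found in 2 of the 12 contractile genes with a sequence (16.7%), Myl9 and Cnn2, and in 1.62% of 27025 genes. The promoter of Myl9, the member that rose, is shown because it holds the box 151 bases before the start, printed in capitals, at chr2:156775214-156775463 on the plus strand.
Myl9: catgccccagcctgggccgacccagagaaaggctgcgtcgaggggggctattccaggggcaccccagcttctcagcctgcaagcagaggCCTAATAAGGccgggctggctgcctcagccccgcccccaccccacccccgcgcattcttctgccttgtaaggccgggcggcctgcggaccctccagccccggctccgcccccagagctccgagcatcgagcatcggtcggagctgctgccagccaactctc
The match is a description of the sequence and not a measured binding site.

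Single members of the collagen genes divided in the same way. Col5a2, a chain of the type V collagen that starts fibrils, was at 8.84, 8.38 and 8.46 on the VPA4h arrays and at 10.57, 10.76 and 10.48 on the VPA64h arrays. It was the one called member of 11 fibrillar collagen genes, with a rise of 2.04 (SE 0.14, adjusted p = 1.18e-08) that did not differ by call from the control rise of 2.35. Col3a1, the single chain of type III collagen, was at 10.92, 10.52 and 10.46 on the VPA4h arrays and at 10.02, 10.72 and 10.04 on the VPA64h arrays. These arrays overlapped, the change was -0.37 (SE 0.19, adjusted p = 0.122), and it differed from the control rise of 1.5 by -1.88 (SE 0.27, adjusted p = 0.000213). The chains of type I collagen, the main fibre of scar tissue, lay between them, with changes of 0.47 for Col1a1 and 0.80 for Col1a2 against control rises of 1.27 and 1.13. The difference of -0.80 for Col1a1 was under the 2-fold limit (adjusted p = 0.0386), and its 95% interval was -1.33 to -0.27.

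Of 20 other collagen genes 2 rose and 1 fell with VPA, where 5.74% of all genes rose and 1.45% fell, so little is read from the count. Col8a1, a short-chain collagen of vessel walls, rose by 3.53 (SE 0.14), the second largest rise of all named genes, against 4.17 in control culture. The difference of -0.64 was under the 2-fold limit (limma adjusted p = 0.0312). Col12a1, a collagen that decorates fibrils, rose by 2.70 against 1.77, from a VPA4h mean of 6.63 that lay under the Ctrl4h mean of 7.75 to a VPA64h mean of 9.32 near the Ctrl64h mean of 9.52. Its difference of 0.92 was under the 2-fold limit too (limma adjusted p = 0.0221). Col14a1, another fibril-associated collagen, fell. It was at 12.24, 12.20 and 12.20 on the VPA4h arrays and at 9.64, 10.01 and 9.57 on the VPA64h arrays, a change of -2.48 (SE 0.12), while its control level was 12.12 at 4 h and 12.11 at 64 h.

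Most genes that process collagen had a positive change with VPA, and a minority passed the 2-fold limit. Of 17 collagen processing and cross-linking genes 3 rose with VPA and 9 without, and the list had a median change of 0.62 with VPA and 1.01 without. At an adjusted p under 0.05 alone 13 of the 17 had a positive change with VPA and 0 a negative one. A called smaller change was found for 1 of the 17. Lox, the oxidase that cross-links collagen and elastin, was at 6.93, 6.42 and 6.99 on the VPA4h arrays and at 9.15, 9.21 and 9.34 on the VPA64h arrays. It rose by 2.46 (SE 0.20, adjusted p = 7.1e-08), against 3.43 in control culture. Its relative Loxl4 rose by 2.06 and P4ha1, a subunit of the prolyl hydroxylase that stabilises the collagen helix, by 1.16. Loxl3, a further lysyl oxidase, had a change of 0.74, under the 2-fold limit, and a called difference of -1.12 from its control rise of 1.86.

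Genes that degrade matrix also moved. Of 16 metalloproteinase and inhibitor genes 4 rose and 2 fell with VPA, and 5 rose and 2 fell in control culture. Over all genes 5.74% rose and 1.45% fell with VPA. The stromelysin Mmp10 rose by 2.61 (SE 0.23) and the metalloproteinase inhibitor Timp1 by 1.51 (SE 0.15), against 2.67 and 1.18 without VPA. Mmp19, a further metalloproteinase, fell by 1.59, with a control change of -1.40. Mmp23 rose by 1.03 in control culture alone, with a called difference of -1.38. Of 22 matrix glycoprotein genes, Fbln2, a fibulin of elastic fibres and basement membranes, rose by 1.85, and Tgfbi, an adhesion protein induced by TGF-beta, fell by 2.27. Emilin1, an elastic fibre protein, was the only member with a called difference (-1.72). Of 24 focal adhesion and cytoskeleton genes none rose and 2 fell, Itga5 and Vasp, an integrin and an actin regulator, both with a change of -1.12. In control culture 4 of these genes rose and Itga5 fell (-1.33), while Vasp had a change of -0.93, under the 2-fold limit. Neither gene had a called difference. With VPA 11 of the 24 had a positive change at an adjusted p under 0.05 and 5 a negative one.

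Among 22 growth factor ligand and receptor genes 2 rose with VPA (5.74% of all genes did), Pdgfd and Vegfd. Pdgfd, a ligand of the platelet-derived growth factor receptor beta, was at 5.06, 5.39 and 5.46 on the VPA4h arrays and at 8.45, 8.64 and 8.20 on the VPA64h arrays. No arrays of both groups overlapped, and the rise of 3.13 (SE 0.13) stood beside a control rise of 3.72. The difference of -0.59 was under the 2-fold limit (limma adjusted p = 0.0375). Vegfd, a ligand of lymphatic endothelium, rose by 3.0 (SE 0.21) against 4.98, a called difference of -1.98. The receptor Fgfr1 fell by 1.66, with a control change of -2.25, and Hgf, the hepatocyte growth factor, had changes of -1.35 with VPA and -1.32 without, both called. Over the whole list 4 genes fell with VPA (1.45% of all genes did), and 2 rose and 3 fell in control culture. The receptors Pdgfra and Pdgfrb had changes of -0.15 and -0.68 with VPA and of -0.25 and -0.13 without.

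Of 23 TGF-beta and BMP pathway genes 5 rose and 2 fell with VPA, where 5.74% of all genes rose and 1.45% fell. Id2, an inhibitor of basic helix-loop-helix factors and a target of BMP signals, rose by 2.46 (SE 0.11) against 2.22. The ligand Bmp4 rose by 1.65 from a VPA4h mean of 8.42, above the Ctrl4h mean of 7.49, and reached 10.07, beside 10.19 at Ctrl64h. Its called difference of -1.04 thus went with a raised level at 4 h and a like level at 64 h, and it lost its call under 5 of 20 alternative settings. The ligand Bmp2 fell by 1.67, with a control change of -3.09. Bmp2 is also on the sinusoidal endothelial list, and the part of endothelial cells in its fall was not tested. Inhba, which encodes the activin A subunit, was at 10.19, 10.30 and 10.53 on the VPA4h arrays and at 10.62, 10.33 and 10.68 on the VPA64h arrays. These arrays overlapped, with a change of 0.20 and a difference of 1.60 from the called control change of -1.39. Id3, a relative of Id2, had a change of -0.41 against a control rise of 1.03, so that Id2 and Id3, which both rose in control culture, did not both rise with VPA.

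The insulin-like growth factor genes held the one gene that turned. Igfbp3, a binding protein that carries insulin-like growth factors, was at 8.97, 8.87 and 8.57 on the VPA4h arrays and at 7.15, 7.77 and 6.95 on the VPA64h arrays. All VPA64h arrays lay below all VPA4h arrays, a change of -1.52 (SE 0.21, adjusted p = 2.13e-05). On the control arrays it went from 9.28, 8.96 and 8.81 to 10.78, 11.46 and 10.67, a rise of 1.95. The difference of -3.47 (SE 0.30, adjusted p = 2.69e-06) was the most negative of the named genes. Of the 12 genes of this list Igf2r, the receptor that takes up Igf2 and lysosomal enzymes, rose by 1.07, a call lost under 3 of 14 alternative settings. Igfbp4 had a change of -0.41 and a called difference of -1.04, lost under 5 of 20 alternative settings.

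Within a list of 16 YAP target and CCN genes, Ccn5 and Ankrd1 had called differences of opposite sign. Ccn5, a matricellular protein of the CCN family, was at 7.15, 7.33 and 7.08 on the VPA4h arrays and at 7.24, 7.71 and 7.01 on the VPA64h arrays, and its change of 0.13 differed by -2.75 (adjusted p = 1.34e-06) from a control rise of 2.88. Ankrd1, a target of YAP, was at 9.81, 9.25 and 9.20 on the VPA4h arrays and at 12.46, 12.23 and 12.42 on the VPA64h arrays, a rise of 2.95 (SE 0.18). Its control level was 11.44 at 4 h and 11.84 at 64 h, so the rise with VPA began from below the control level. Ankrd1 was the 1 gene of the list that rose with VPA, a share near the 5.74% of all genes, and 3 rose in control culture.

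Division genes made up the lists, of 28, in which the culture change was most often smaller with VPA. Of 23 genes of G1/S and DNA replication 2 rose with VPA and 14 in control culture, and the difference was lower for 12. Of 23 genes of G2/M and mitosis 2 rose with VPA and 14 in control culture, and the difference was lower for 13, where 1.78% of all genes had a lower difference. The median changes were 0.38 and 0.31 with VPA and 1.18 and 1.36 without. The members that rose with VPA were Rrm1 and Rrm2, the subunits of ribonucleotide reductase that makes DNA precursors (1.37 and 1.05), Cdk1, the kinase that starts mitosis (1.26), and Tpx2, a spindle protein (1.22). Each had a called smaller change than in control culture, where they rose by 2.68, 2.70, 2.43 and 2.42. Rrm2 lost its call with VPA under 3 of 14 alternative settings.

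Top2a, the topoisomerase that untangles replicated chromosomes, was at 5.54, 5.56 and 5.64 on the VPA4h arrays and at 6.49, 6.55 and 6.59 on the VPA64h arrays. The arrays did not overlap, and the change of 0.97 (SE 0.09, adjusted p = 1.81e-07) was just under the 2-fold limit, where control culture had a rise of 2.70. Ccna2, the cyclin of S phase and mitosis, had a change of 0.31 against 2.22, and Ccne2, a cyclin of the G1/S step, one of 0.38 against 2.35. Mcm4, a subunit of the replicative helicase, had a change of -0.12 against 1.78, from a VPA4h mean of 7.85 that lay above the Ctrl4h mean of 6.90. Of 16 CDK inhibitor and p53 target genes, the p53 targets Ccng1 and Trp53inp1 rose by 2.05 and 1.26 with VPA and by 2.52 and 1.81 without, and Mdm2, the ligase that degrades p53, rose with VPA by 1.04. The inhibitor Cdkn2c had a change of 0.85 and a called difference of -1.03, which lost its call under 6 of 20 alternative settings.

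**Figure D3:**
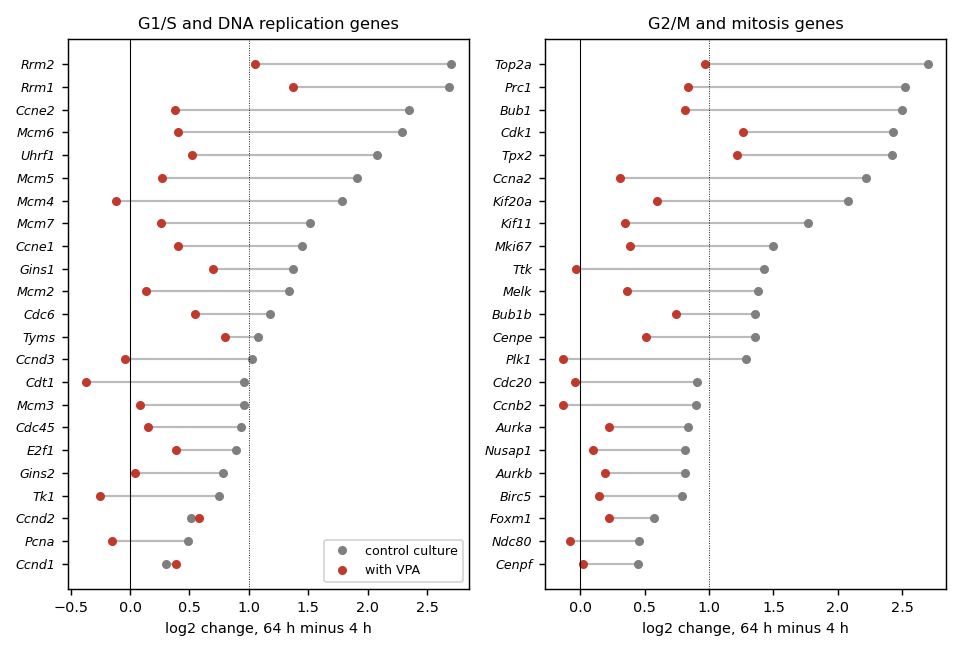
Log2 change between 4 h and 64 h of each gene of the G1/S and the G2/M list in control culture (grey) and with VPA (red), with a dotted line at the 2-fold limit. The red points lie left of the grey ones for all genes but Ccnd1 and Ccnd2, and 4 red points, Rrm1, Rrm2, Cdk1 and Tpx2, lie right of the dotted line.

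Promoters of these genes were searched for short elements on both strands, again in the 250 bases before the start. The CHR element TTTGAA, known from genes switched on before mitosis, was found in 7 of 18 mitosis genes with a sequence (38.9%) and in 18.3% of 27025 genes. The E2F site, written as TTGGCGC or TTCGCGC, was found in 3 of 17 G1/S genes (17.6%), Mcm5, Mcm6 and Uhrf1, and in 3.66% of all genes. The 120 bases before the start are shown for a set of mitosis genes that differ in how much of their rise remained, with the CHR element in capitals, which reads TTCAAA where it lies on the other strand. The change with VPA was 1.26 for Cdk1, 0.84 for Prc1 and 0.35 for Kif11, and the control rises were 2.43, 2.52 and 1.77.
Cdk1: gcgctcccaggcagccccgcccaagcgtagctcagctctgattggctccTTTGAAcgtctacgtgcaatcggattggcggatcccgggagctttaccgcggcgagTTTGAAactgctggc
Prc1: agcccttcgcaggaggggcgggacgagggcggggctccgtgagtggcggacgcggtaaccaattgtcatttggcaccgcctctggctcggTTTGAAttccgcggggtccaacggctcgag
Kif11: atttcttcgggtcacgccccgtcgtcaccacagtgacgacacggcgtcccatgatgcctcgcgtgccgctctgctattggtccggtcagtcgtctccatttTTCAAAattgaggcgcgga
They lie at chr10:69352913-69353032 on the minus strand, chr7:80294356-80294475 on the plus strand and chr19:37376262-37376381 on the plus strand. All 3 had a called smaller change with VPA, with differences of -1.16, -1.67 and -1.42.

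Loss of the resting phenotype went on with VPA. Of 20 markers of quiescent HSCs 10 fell with VPA and none rose, where 1.45% of all genes fell with VPA. In control culture 11 fell and 2 rose, and 8 fell in both cultures. The difference was called lower for 4 of the 20 and higher for 2. The median change was -1.17 with VPA and -1.44 without. Angptl6, an angiopoietin-like secreted protein, was at 9.12, 9.62 and 9.34 on the VPA4h arrays and at 6.65, 6.14 and 5.95 on the VPA64h arrays, a change of -3.11 (SE 0.17) beside -3.16 in control culture. Colec11, a collectin, Rgs5, a pericyte regulator of G protein signals, and Reln, the secreted glycoprotein reelin, fell with changes of -3.07, -1.98 and -1.36, and their control changes were -2.71, -2.31 and -1.58. The differences of these 4 genes were not called and lay between -0.37 and 0.33.

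Some resting markers fell further with VPA than without. Adamtsl2, a secreted ADAMTS-like protein, was at 9.99, 9.77 and 10.06 on the VPA4h arrays and at 6.83, 6.96 and 6.74 on the VPA64h arrays. The change of -3.10 (SE 0.15) differed by -2.1 (adjusted p = 1.06e-05) from the control change of -0.99. The collectin Colec10 fell by 2.06 beside a control change of -0.94. Ntm, the adhesion molecule neurotrimin, went the other way, with a change of -0.91 (adjusted p = 2.83e-05, under 2-fold) against -2.52 in control culture and a difference of 1.61. Of 23 lineage and mesenchymal transcription factors none rose with VPA and 4 fell, while 3 rose and 1 fell in control culture. Gata4, a factor linked to the resting HSC, and Foxf1, a factor of the liver mesenchyme, fell with changes of -1.09 and -1.03. Their control changes were -0.38 and -0.53, and neither difference was called. Their VPA4h means of 10.12 and 11.05 lay above the Ctrl4h means of 9.51 and 10.21. The 64 h means were 9.02 and 10.02 with VPA and 9.14 and 9.68 without. Foxf1 lost its call under 2 of 14 alternative settings, and a second probe set of it had a change of -0.34. Snai2, a factor of mesenchymal transition, had a change of 0.22 and a called difference of -1.16, with a mean of 7.67 at VPA4h against 6.56 at Ctrl4h and like levels of 7.89 and 7.94 at 64 h.

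Inflammatory genes fell in both cultures. Of 24 chemokine, cytokine and NF-kB response genes 17 fell with VPA, 15 fell without, 14 fell in both, and none rose. The median change was -1.57 with VPA and -1.80 without. Cxcl1, a neutrophil chemokine and the largest fall of the named genes, was at 11.46, 10.69 and 10.29 on the VPA4h arrays and at 6.96, 5.91 and 6.05 on the VPA64h arrays. The change was -4.50 (SE 0.30) beside -4.65 in control culture. Cxcl2 and the monocyte chemokines Ccl2 and Ccl7 fell with changes of -4.30, -3.82 and -3.77, beside -4.71, -4.29 and -4.03 without VPA. The differences of these 4 genes lay between 0.15 and 0.47 and were not called. Il33, an alarmin stored in the nucleus, fell by 2.57, with a control change of -3.62, and Cxcl5, another neutrophil chemokine, fell by 1.75, with a control change of -3.36, from a VPA4h mean of 7.90 under the Ctrl4h mean of 9.68. Their differences were called, and each lost its call under 4 of 20 alternative settings.

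The immediate early genes, which respond within minutes to serum and to the stress of isolation, fell in part. Of 24 members 13 fell with VPA, 14 fell without and 13 fell in both. Fosb, a subunit of the AP-1 factor, was at 9.55 ± 0.21 at VPA4h and at 6.09 ± 0.06 at VPA64h (SD, n = 3), a change of -3.46 beside -3.27 without VPA. The orphan nuclear receptor Nr4a1 and the zinc finger factor Egr2 fell with changes of -2.79 and -2.68, beside -2.41 and -3.80 without VPA. Egr2 alone of this list had a called difference (1.12), lost under 4 of 20 alternative settings. Of 16 unfolded protein and stress genes 5 fell with VPA and 1 rose, and 6 fell and 1 rose without. The difference was called higher for 4 of the 16, where 0.838% of all genes had one. Ddit3, the factor CHOP of the unfolded protein response, and Chac1, a glutathione-degrading enzyme, fell with changes of -1.36 and -1.19. Their control changes were -1.06 and -2.07, and Chac1 began lower with VPA, at a VPA4h mean of 8.84 against 9.93 at Ctrl4h. Hspa1a, an inducible chaperone, had a change of 0.74 and a called difference of 1.26 from a control change of -0.52. Of 15 interferon response genes 2 rose and 1 fell with VPA, beside 5.74% and 1.45% of all genes. No difference from control culture was called. One of the rises, Ifit1 (1.01), had overlapping VPA arrays and lost its call under 7 of 14 alternative settings.

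Of 18 complement, coagulation and plasminogen activation genes 7 fell and 2 rose with VPA, and 8 fell and 2 rose without. Cfb, complement factor B, was at 9.89, 9.45 and 9.28 on the VPA4h arrays and at 7.08, 6.98 and 6.55 on the VPA64h arrays. It fell by 2.67 (SE 0.23), where the control change was -0.69, and the difference was -1.98. C1ra, a protease of the classical complement pathway, had changes of -2.00 with VPA and -1.09 without, both called. Tfpi, the inhibitor of the tissue factor pathway, rose by 2.06 against 1.37. Plat, the tissue plasminogen activator, was at 8.35, 8.04 and 7.87 on the VPA4h arrays and at 9.59, 9.52 and 9.37 on the VPA64h arrays, a rise of 1.40 with a difference of 2.00 from a control change of -0.59. Serpinb2, an inhibitor of plasminogen activators, had the most positive difference of the named genes, 3.31 (SE 0.59, adjusted p = 0.000992). Its arrays spread widely: 9.07, 7.70 and 7.93 at VPA4h and 8.58, 7.91 and 9.55 at VPA64h, an overlap, where control arrays went from 9.67, 8.41 and 8.34 to 6.27, 5.52 and 6.04.

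**Figure D4:**
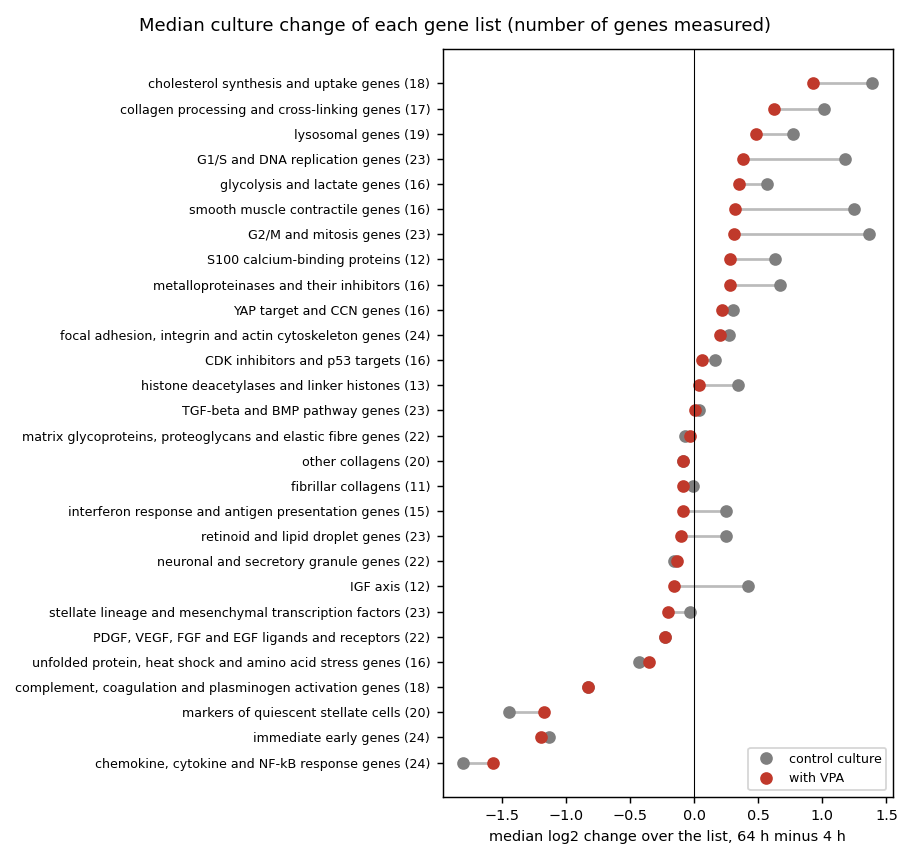
Median log2 change between 4 h and 64 h over each of 28 gene lists, in control culture (grey) and with VPA (red), with the number of measured genes in parentheses. The G2/M, G1/S and contractile lists have the longest lines between both points, and the chemokine, immediate early and quiescence lists lie below -1 in both cultures. Each line joins separate medians. The median of the gene-wise differences was -1.03 for the G2/M, -1.05 for the G1/S and -0.30 for the contractile list.

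Among metabolic genes, those of cholesterol synthesis went on in part. Of 18 cholesterol synthesis and uptake genes 7 rose with VPA and 14 without, with medians of 0.93 and 1.39. Nsdhl, Lss and Fdft1, enzymes of sterol synthesis, rose by 1.95, 1.75 and 1.54, against 2.30, 2.05 and 1.75. Idi1 and Fdps, enzymes that make isoprenoid precursors, had called smaller changes, 1.27 against 2.46 and 0.96 against 2.35. The mean of Fdps was 7.65 at VPA4h, above the 6.56 of Ctrl4h, and 8.61 and 8.91 at 64 h with and without VPA.

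Of 19 lysosomal genes 5 rose and 1 fell with VPA, and no difference from control culture was called. Over all genes 5.74% rose and 1.45% fell with VPA, which also stands beside the next 2 lists. Tpp1, a lysosomal peptidase, rose by 2.09 (SE 0.07), Ctsa by 1.67 and Ctsz by 1.52. Among 23 genes of retinoid metabolism and lipid droplets there were 3 rises and 1 fall with VPA. The rises were Aldh1a1 and Aldh1a2, which oxidise retinal to retinoic acid (2.32 and 1.81), and Rarb, a retinoic acid receptor (2.03), beside control rises of 2.04, 2.51 and 1.51. G0s2, an inhibitor of lipolysis, had a change of -0.33 and a called difference of -1.48. Of 16 glycolysis genes Pfkm, the muscle phosphofructokinase, and Slc16a3, a lactate exporter, rose by 1.87 and 1.51, close to 1.71 and 1.49 without VPA. Tpi1, triosephosphate isomerase, had a change of 0.86 and a called difference of -1.10, with a VPA4h mean of 10.45 above the Ctrl4h mean of 9.23 and 64 h means of 11.31 and 11.19.

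S100a6, a calcium-binding protein of growing cells, had the largest rise of the named genes with VPA. It was at 6.42, 6.48 and 6.46 on the VPA4h arrays and at 10.51, 10.53 and 10.39 on the VPA64h arrays, a rise of 4.02 (SE 0.10, adjusted p = 9.31e-13) beside 4.10 in control culture. Of 12 S100 genes measured, S100a6 alone passed both limits with VPA and 5 did in control culture, but 6 of the 12 had a positive change at an adjusted p under 0.05 with VPA, and S100a4 alone had a called difference. S100a4, long used as a fibroblast marker, had a change of 0.43 and a called difference of -1.12 from a control rise of 1.55.

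The 10 largest rises with VPA, predicted and small RNA genes passed over, were all control-culture rises as well. After S100a6 and Col8a1 they were Car5b, a mitochondrial carbonic anhydrase (3.36), Tbc1d19, a TBC domain protein (3.33), Hacd4, a dehydratase of fatty acid elongation (3.25), Nicn1 (3.13), Pdgfd (3.13), Cyp1b1, a cytochrome P450 of steroids and retinoids (3.09), Eda2r, a receptor of the tumour necrosis factor family (3.07), and Gstk1, a glutathione transferase (3.05). Tbc1d19 and Cyp1b1 rose more with VPA than without, by 1.18 and 1.42. Of the 10 largest falls 9 were control-culture falls as well, Adamtsl2 being the exception. Besides genes given above they included Adamts4, a protease of cartilage proteoglycans (-3.63), and Sparcl1, a matricellular protein (-3.49).

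Read from the control side, 19 of the 20 largest control-culture rises also rose with VPA, and 11 of the 20 had a called smaller change. The exception was Aard, an alanine and arginine rich protein, at 6.87, 7.05 and 6.83 on the VPA4h arrays and 7.24, 7.82 and 7.03 on the VPA64h arrays. The change of 0.45 (SE 0.16, adjusted p = 0.0259) differed by -2.65 from the control rise of 3.10. Plscr2, a phospholipid scramblase, rose by 2.75 against 3.88. Of the 20 largest control-culture falls 19 also fell with VPA, 5 had a called smaller change, and Serpinb2 was the exception.

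A further 434 genes rose with VPA that were not called as rises in control culture, and for 71 of these the difference was called. Some genes known from neurons and secretory granules were among them. Of a list of 22 such genes, which holds members the study picked on these arrays, so that its count is no independent evidence and nothing is read from it, 5 rose with VPA and none in control culture, and those 5 had a called higher change (0.838% over all genes). Uchl1, a neuronal ubiquitin hydrolase, was at 6.08, 6.48 and 6.26 on the VPA4h arrays and at 8.02, 8.09 and 8.63 on the VPA64h arrays, a rise of 1.97 (SE 0.14, adjusted p = 1.14e-08). Its control means were 6.45 and 6.16. Sort1, the sorting receptor sortilin, rose by 1.92, Ptprn, a secretory granule protein, by 1.81, Aplp1, a relative of the amyloid precursor, by 1.75, and Syn1, the synaptic vesicle protein synapsin, by 1.61. The remaining 17 genes of this list were not called, so the list as a whole did not rise, and its median change was -0.13 with VPA.

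Thy1 and Cd34, surface proteins that also mark portal fibroblasts, rose by 1.62 and 1.14 with VPA, with control changes of 0.22 and -0.32. Of the 16 genes of the list that holds them, Fbln2 was the only other one called, and the keratins Krt7 and Krt19 had changes of -0.48 and 0.82. Cd34 lost its call under 1 of 14 alternative settings. Npr3, the clearance receptor of natriuretic peptides, and Ampd3, an AMP deaminase, rose by 2.22 and 1.30 with called differences of 2.26 and 2.12. As with Ankrd1, their VPA4h means lay under the Ctrl4h means, 8.55 against 10.25 for Npr3 and 7.62 against 8.95 for Ampd3. The neuronal genes and Thy1 instead began near control level and ended above it.

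**Figure D5:**
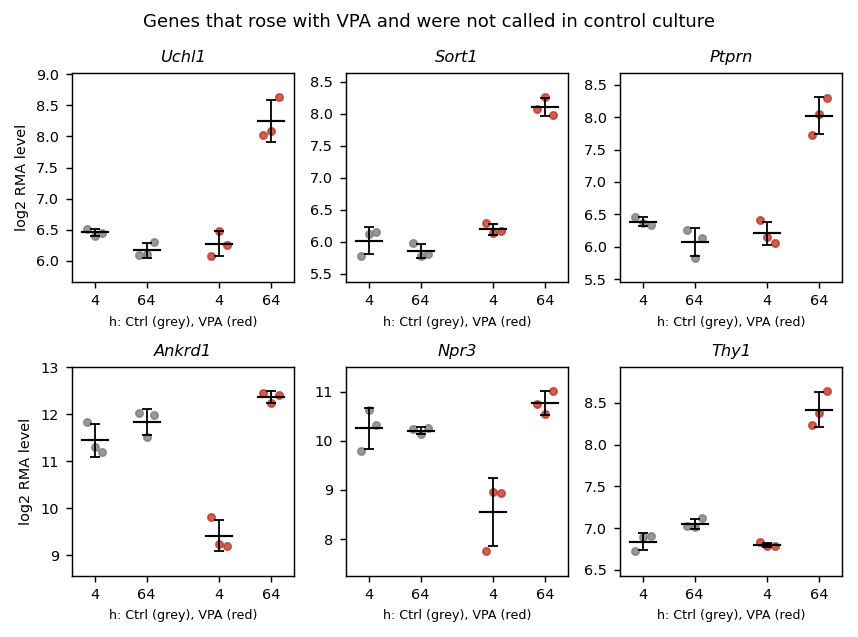
Log2 RMA levels on each array (points) of 6 genes that rose with VPA and were not called in control culture, at 4 h and 64 h in control culture (grey) and with VPA (red), with the mean and SD of 3 arrays. Uchl1, Sort1, Ptprn and Thy1 started near control level and ended above it, while Ankrd1 and Npr3 started below it.

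Of 13 histone deacetylase and linker histone genes, which include targets of VPA, none rose and 1 fell. H1f2, a linker histone, fell by 1.35 from a VPA4h mean of 9.0, above 6.96 at Ctrl4h, to 7.66, beside 7.30 at Ctrl64h. Hdac5, a class II deacetylase, had a change of -0.51 and a called difference of -1.06. Myh10 and Fgfr2, a non-muscle myosin and a fibroblast growth factor receptor, shared this form, with VPA4h means of 8.30 and 10.41 above the Ctrl4h means of 7.18 and 9.52. Their changes of 0.94 and -0.26 with VPA had called differences of -1.12 and -1.17, and their 64 h means were 9.24 in both cultures for Myh10 and 10.15 and 10.42 for Fgfr2. The control changes were 0.34 for H1f2, 0.55 for Hdac5, 2.06 for Myh10 and 0.90 for Fgfr2, so only Myh10 kept its sign with VPA. For these genes a called lower change went with a raised level at 4 h and a level at 64 h close to that of control cells.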

How the data were processed

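RNA of 14 cultures was hybridised to Affymetrix mouse gene arrays. The authors deposited RMA-normalised log2 values, 1 row per probe set. GeneSpring GX is named for RMA in the paper, Affymetrix Expression Console in the submitters' processing notes. The genome build is not given in the sources used here, and values were used as deposited. Of 35557 probe sets 23410 had at least 1 gene symbol and were tested; genes were named from the 21789 with exactly 1, using the probe set with the highest mean. Groups were taken from sample titles. All 5 groups entered 1 fit (limma 3.58.1, lmFit and eBayes, two-sided, R 4.3.3) with Benjamini-Hochberg adjustment over the 23410. Calls needed an adjusted p under 0.05 and a log2 change of at least 1. The code was tested on simulated data. The number of arrays limits the precision. Lists and members were chosen with earlier results of these data known. Named genes were the 10 largest rises and falls with VPA, the 5 largest differences each way, up to 4 of each outcome among the 20 largest control changes, up to 3 called members a list for each test and genes the study names; others come from the lists. No set test was run.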

Additional observations from a re-analysis of the deposited data

Results flagged for a closer look

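For 60 of the genes chosen by rule the culture change with VPA differed from that of control culture by the test of the difference itself, and the log2 difference (VPA minus control) of each is given here. Contractile and cytoskeletal genes were lower by -2.31 (Actg2), -2.04 (Myh11), -1.17 (Des), -1.12 (Myh10) and -1.65 (Itga8). Matrix genes were lower by -2.47 (Col14a1), -1.88 (Col3a1), -1.72 (Emilin1), -1.38 (Mmp23) and -1.12 (Loxl3). Growth factor, IGF, CCN and BMP genes were lower by -3.47 (Igfbp3), -2.75 (Ccn5), -1.98 (Vegfd), -1.44 (Id3), -1.17 (Fgfr2), -1.04 (Igfbp4) and -1.04 (Bmp4).

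Division genes were lower by -1.97 (Ccne2), -1.91 (Ccna2), -1.90 (Mcm4), -1.73 (Top2a), -1.66 (Rrm2), -1.31 (Rrm1), -1.21 (Tpx2) and -1.16 (Cdk1). Of the CDK inhibitor and p53 target list, Cdkn2c had a difference of -1.03 and Gadd45a one of 1.15. Lower values were also found for Aard (-2.65), Adamtsl2 (-2.10), Cfb (-1.98), H1f2 (-1.68), G0s2 (-1.48), Fdps (-1.39), Idi1 (-1.19), Snai2 (-1.16), Plscr2 (-1.12), S100a4 (-1.12), Tpi1 (-1.10) and Hdac5 (-1.06).

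Genes of the inflammatory, early and stress groups were higher by 1.62 (Cxcl5), 1.26 (Hspa1a), 1.12 (Egr2), 1.10 (Trib3) and 1.05 (Il33). Neuronal genes were higher by 2.26 (Uchl1), 2.12 (Ptprn), 2.07 (Sort1) and 1.90 (Aplp1). Other genes were higher by 3.31 (Serpinb2), 2.55 (Ankrd1), 2.26 (Npr3), 2.12 (Ampd3), 2.00 (Plat), 1.61 (Ntm), 1.60 (Inhba), 1.47 (Cd34), 1.43 (Bmp2), 1.42 (Cyp1b1), 1.40 (Thy1) and 1.18 (Tbc1d19). The part of the level at 4 h in these values was not tested.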

How the results depend on the processing

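The counts of rises and falls, of shared rises and falls and of called differences stayed within 1.5 times their reported values under every alternative run, and the medians over control-culture rises and falls stayed at 0.99 to 1.02 and -0.96 to -0.88 when 1 array was left out. Leaving out 1 array at a time gave 1131 to 1168 rises, 273 to 323 falls, 698 to 731 shared rises and 174 to 211 shared falls. A figure caption of the paper gives the numbers within a group as separate HSC isolations. No source says whether the same number in different groups marks the same isolation. Deviations of same-numbered arrays correlated at -0.01 to 0.23 between VPA4h and VPA64h, with 3 of 6 VPA arrays closest to their own number, and all same-numbered pairs were over 0.1 for Ctrl4h with VPA4h (0.14 to 0.28), Ctrl4h with VPA64h (0.11 to 0.18) and Ctrl64h with VPA64h (0.16 to 0.17). Over all groups same-numbered pairs ran from -0.24 to 0.28 (median 0.09), with 13 of 26 over 0.1. Pairs of different numbers ran from -0.35 to 0.35 (median -0.05). A pairing of the numbers across treatments is thus at most hinted at by the data and is not given by the design. With the replicate number as a block 1145 genes rose, 289 fell, and 167 and 356 had a higher and a lower difference. Centring on 13 housekeeping genes moved the median of all genes by -0.10 and gave 903 rises and 387 falls, so that rises were 70.0% of calls in place of 79.8%. No result reversed. Several single genes near the 2-fold limit lost or gained a call. Arrays give no counts, and probe background was not used here. Leaving out probe sets with a mean under 6 gave 1012 rises and 282 falls.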

Other observations

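Probe sets assigned to several gene symbols were left out of the gene counts. Of 1621 of them 207 (12.8%) fell with VPA between 4 h and 64 h and 38 (2.34%) rose, while 330 of 21789 single-gene probe sets (1.51%) fell and 1193 (5.48%) rose. Which genes of these groups carried the falls cannot be told from the array.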
